A study of Mus musculus with 6 samples.

Results

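The genes described here are 10 controllers of the G1 phase of the cell cycle: the inhibitors Cdkn1b, Cdkn1c, Cdkn2a, Cdkn2b, Cdkn2c and Cdkn2d, the D-type cyclins Ccnd1, Ccnd2 and Ccnd3, and the kinase Cdk6. They were chosen by name, not by a rule on their values, but with earlier results of these data known. Only probe sets whose annotation names a single gene symbol were used. All 10 were found among 22180 genes, each through 1 probe set. Levels were read on 6 Affymetrix arrays of cultured mouse macrophages, in 3 groups of 2 arrays.

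Each culture began as bone marrow of C57Bl/6 mice, grown for 5 days with M-CSF at 20 ng/ml, the growth factor of the macrophage lineage. In the M-CSF group the resulting macrophages were replated in M-CSF at 50 ng/ml for 6 days. The FSL-1 group received FSL-1 at 20 ng/ml for the same 6 days, and the labels leave unsaid whether they also held M-CSF. For cultures with FSL-1, a comparison with the M-CSF group therefore cannot tell FSL-1 apart from a different level of M-CSF. FSL-1 is a synthetic lipopeptide ligand of the TLR2 and TLR6 receptor pair, and the design of the series calls the FSL-1 cultures multinucleated giant cells. The FSL-1 + nutlin-3a group received the same FSL-1 with nutlin-3a at 10 µM, a compound that keeps Mdm2 from binding p53. No group had nutlin-3a without FSL-1. RNA came from sorted cells, with the gate not given here, and nothing in the labels says that the arrays of a group came from separate animals or cultures, so the p-values measure a spread that may be technical.

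D-type cyclins bind Cdk4 or Cdk6, and the active kinase phosphorylates the retinoblastoma protein, which releases E2F factors and lets a cell enter S phase. INK4 proteins, encoded by Cdkn2a, Cdkn2b, Cdkn2c and Cdkn2d, bind Cdk4 and Cdk6 and keep the cyclin away. Cip/Kip proteins, among them the products of Cdkn1a, Cdkn1b and Cdkn1c, bind cyclin-CDK complexes and block mainly Cdk2. In macrophages, M-CSF signalling is known to induce D-type cyclins, and these proteins bear on whether a precursor divides or leaves the cycle.

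The arrays showed opposite movements within this small network. Cdkn2c and Cdkn1b fell with FSL-1 and fell again when nutlin-3a was added, Cdkn2d fell with nutlin-3a, and Ccnd1 and Ccnd2 stood highest in the cells that had received both agents. Compared with M-CSF cells, in those given both agents Cdkn2c was 5.92-fold lower, Cdkn1b 2.95-fold lower and Cdkn2d 2.4-fold lower, while Ccnd1 was 3.39-fold and Ccnd2 2.73-fold higher. Cdkn2b was the INK4 gene that rose, 1.5-fold in that comparison. Ccnd3 and Cdk6 did not pass the test in any of the 3 comparisons.

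A gene is said to have risen or fallen where limma, fitted to all 6 arrays and all 22180 genes, gave a Benjamini-Hochberg adjusted p under 0.05. With FSL-1 against M-CSF, 6.86% of all genes passed, 3.91% higher and 2.95% lower; 1 of the 10 genes rose (Ccnd2) and 2 fell (Cdkn1b and Cdkn2c). With nutlin-3a added to FSL-1, 6.5% of all genes passed, 2.38% higher and 4.12% lower; 1 of the 10 rose (Cdkn2b) and 4 fell (Cdkn1b, Cdkn1c, Cdkn2c and Cdkn2d). Under both agents, compared with M-CSF, 9.51% of all genes passed, 4.58% higher and 4.94% lower; 3 of the 10 rose (Cdkn2b, Ccnd1 and Ccnd2) and 4 fell (Cdkn1b, Cdkn2a, Cdkn2c and Cdkn2d). With only 2 arrays a group, groups that do not overlap are common: this held for 50.2%, 50.9% and 51.5% of all genes in the 3 comparisons and for 9, 10 and 9 of the 10 genes. The median log2 change of the 10 genes was 0.06, -0.40 and -0.30 in these comparisons, and that of all genes -0.01, 0.02 and 0.02. The comparisons share arrays: the same FSL-1 arrays enter the first and the second, so a deviation in them moves both. With single arrays dropped, the 3 calls with FSL-1 were 1 at the fewest (M-CSF array 1), and the 7 calls over both steps were 4 (FSL-1 + nutlin-3a array 2). The 5 calls with nutlin-3a were 2 for FSL-1 array 2 or FSL-1 + nutlin-3a array 2 and 3 for the other array of either group. When the test asked for a change beyond 1.5-fold, 0 of the 10 passed with FSL-1 and 0 with nutlin-3a, where 0.938% and 0.717% of all genes did. Over both steps 3 passed (Cdkn1b, Cdkn2c and Cdkn2d). With nutlin-3a, 8 passed with a trended, robust variance (12% of all genes) and 8 when only the brighter genes, those at or above the median level, were tested (23.3% of these), while a block for the replicate number left 3. With FSL-1, 5 passed among the brighter genes, where 24.2% of them did.

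**Figure D1:**
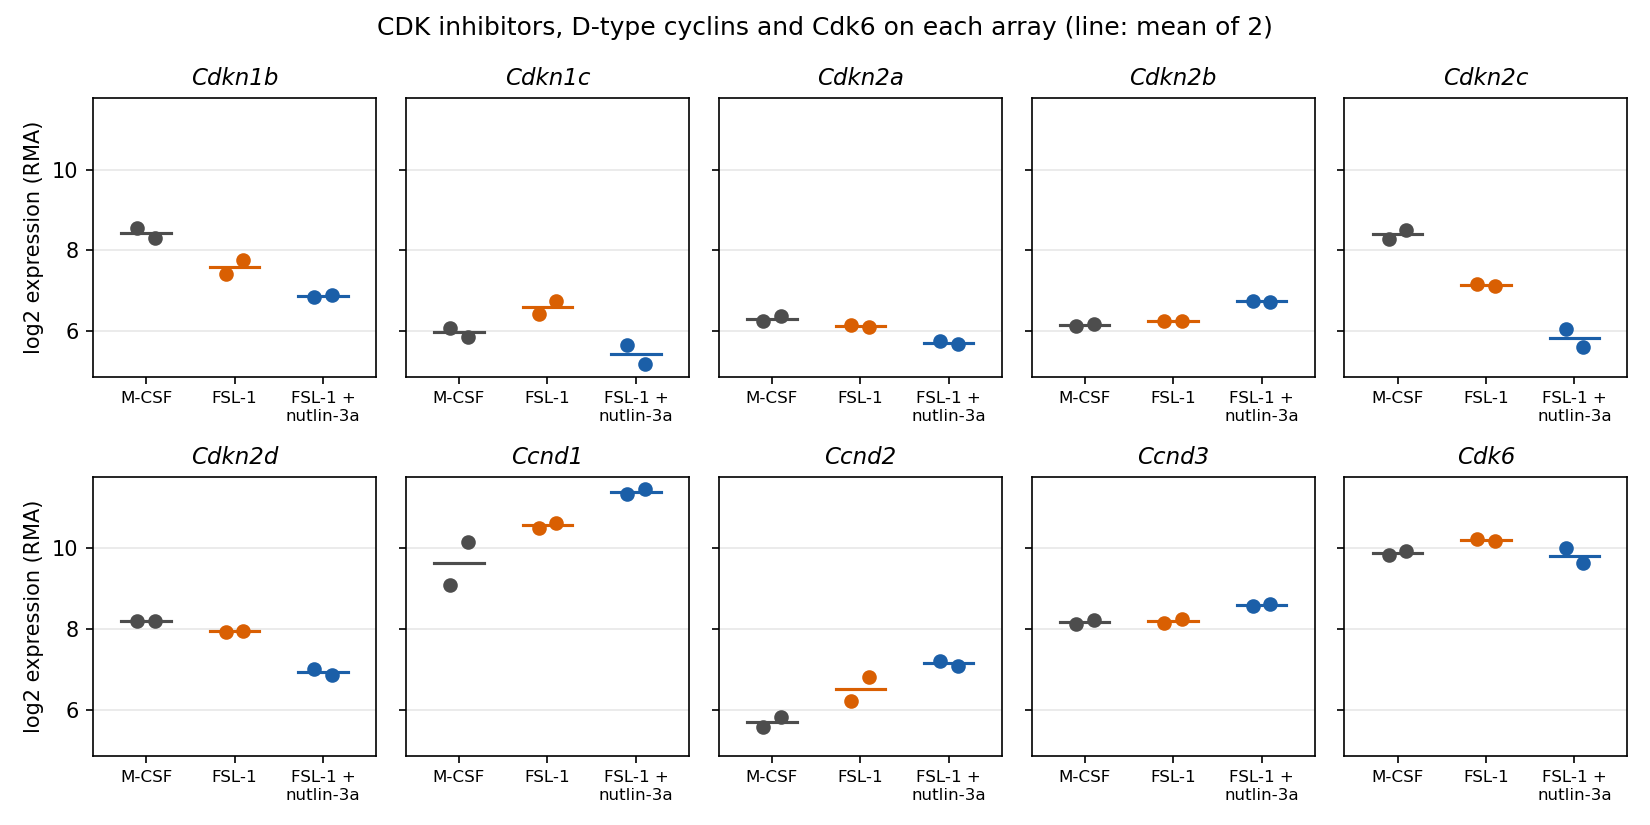
Log2 expression (RMA, vertical axis) of the 10 genes in M-CSF, FSL-1 and FSL-1 + nutlin-3a cultures; each point is 1 array and each line the mean of 2. Cdkn2c steps down from 8.40 to 7.15 to 5.83, Ccnd1 steps up from 9.64 to 10.57 to 11.40 with its M-CSF arrays far apart, and Cdkn1c is highest with FSL-1 (6.59).

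Among the INK4 genes, Cdkn2c, which encodes p18, moved the most. Its log2 levels were 8.28 and 8.51 on the M-CSF arrays, 7.17 and 7.12 with FSL-1, and 6.06 and 5.60 with FSL-1 + nutlin-3a. The groups did not overlap, in the order M-CSF above FSL-1 above FSL-1 + nutlin-3a, and the gap between neighbouring groups was wider than the gap between the arrays of any of them. With FSL-1, Cdkn2c was 2.38-fold lower (log2 change -1.25, SE 0.168, adjusted p = 0.00501, limma). Adding nutlin-3a lowered it 2.49-fold more (log2 change -1.32, SE 0.168, adjusted p = 0.00454). Neither single step of Cdkn2c passed when a change beyond 1.5-fold was asked for (adjusted p = 0.175 and 0.136, limma). Against M-CSF the log2 change was -2.57 (95% interval -2.96 to -2.18, adjusted p = 0.000102), which placed it 61st of 22180 genes by size of change. All 3 calls held with any 1 of the 6 arrays dropped, with adjusted p from 0.00381 to 0.0474, from 0.00742 to 0.045 and from 0.000364 to 0.00176.

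Cdkn2d, which encodes p19INK4d, fell later in this series of conditions. It measured 8.21 and 8.21 in M-CSF, 7.94 and 7.96 with FSL-1, and 7.02 and 6.88 with FSL-1 + nutlin-3a. The first 2 groups lay close together without overlap, and the third lay well below them. The change with FSL-1 did not pass (log2 change -0.26, 95% interval -0.52 to 0.00, adjusted p = 0.24). The fall with nutlin-3a did (log2 change -1.0, SE 0.114, 2-fold lower, adjusted p = 0.00281). It did not pass when a change beyond 1.5-fold was asked for (adjusted p = 0.271, limma). The nutlin-3a call held without any 1 of the 6 arrays, with adjusted p from 0.00717 to 0.0336.

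Cdkn2b, which encodes p15, lies beside Cdkn2a and went the other way. It measured 6.13 and 6.18 in M-CSF, 6.26 and 6.24 with FSL-1, and 6.74 and 6.73 with FSL-1 + nutlin-3a. M-CSF and FSL-1 levels were nearly the same, with an interval of the log2 difference from -0.15 to 0.35, and both FSL-1 + nutlin-3a arrays were higher. It rose with nutlin-3a by 0.48 (log2, SE 0.109, 1.4-fold, adjusted p = 0.042). This call was lost with any 1 of the 6 arrays dropped (adjusted p from 0.0601 to 0.199), with each array centred on its median (adjusted p = 0.0613), when only the FSL-1 and FSL-1 + nutlin-3a arrays were fitted (0.0601) and with a block for the replicate number (0.0806). Against M-CSF the rise was 0.58 (adjusted p = 0.0144), which no longer passed when an M-CSF or FSL-1 + nutlin-3a array was dropped, with values from 0.56 to 0.61.

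Cdkn2a encodes both the INK4 protein p16 and, from another reading frame, Arf, which binds Mdm2. Its 1 probe set is annotated by gene only, so transcripts of the pair cannot be told apart here. It measured 6.25 and 6.37 in M-CSF, 6.16 and 6.11 with FSL-1, and 5.76 and 5.68 with FSL-1 + nutlin-3a. The groups did not overlap, but the M-CSF and FSL-1 arrays lay close together. Neither single step passed (log2 change -0.18, adjusted p = 0.459 with FSL-1, and -0.42, adjusted p = 0.0772 with nutlin-3a, which passed among the brighter genes alone at 0.0201). The 2 ends of the order differed by -0.60 (SE 0.115, adjusted p = 0.0165), but not beyond the threshold once M-CSF array 2 (adjusted p = 0.082) or an FSL-1 + nutlin-3a array (0.0574 and 0.0831) was dropped.

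Of the Cip/Kip genes, Cdkn1b, which encodes p27, fell in every comparison. It measured 8.56 and 8.30 in M-CSF, 7.42 and 7.75 with FSL-1, and 6.86 and 6.89 with FSL-1 + nutlin-3a. The groups did not overlap, although the FSL-1 arrays stood apart from each other (SD 0.237 on the log2 scale). The fall with FSL-1 was 1.8-fold (log2 change -0.85, SE 0.152, adjusted p = 0.0165) and that with nutlin-3a 1.64-fold (log2 change -0.71, adjusted p = 0.0343). The first call was lost without M-CSF array 1 (adjusted p = 0.112) or FSL-1 array 1 (0.118). The second did not survive the loss of any FSL-1 or FSL-1 + nutlin-3a array (0.064 to 0.196) or a block for the replicate number (0.0572). Over both steps the log2 change of -1.56 (95% interval -1.91 to -1.21, adjusted p = 0.000663) held without any 1 of the 6 arrays.

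Cdkn1c, the imprinted gene of p57, was highest in the FSL-1 group, as was Cdk6. It measured 6.07 and 5.87 in M-CSF, 6.42 and 6.76 with FSL-1, and 5.67 and 5.18 with FSL-1 + nutlin-3a. Both FSL-1 arrays were above all others, and both FSL-1 + nutlin-3a arrays were below those of M-CSF. The difference of 0.62 with FSL-1 did not pass (95% interval 0.18 to 1.06, adjusted p = 0.103), but did so with a trended, robust variance (0.0468) and among the brighter genes alone (0.0365). With nutlin-3a it fell 2.24-fold (log2 change -1.17, SE 0.191, adjusted p = 0.0129), a call lost without FSL-1 array 2 (0.102) or FSL-1 + nutlin-3a array 2 (0.0603). Against M-CSF the FSL-1 + nutlin-3a group differed by -0.54 (95% interval -0.98 to -0.10, adjusted p = 0.126, limma), which did not pass.

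Summed signal of 10 fibroblast markers had the same order as Cdkn1c, with 537 to 598 in M-CSF, 743 to 1009 with FSL-1 and 473 to 531 with FSL-1 + nutlin-3a (linear scale). Of these markers 4, 4 and 3 were above the median of all genes. In this list 8 of 10 changes were positive with FSL-1 (median 0.31), and 1 gene rose, beside 3.91% of all genes. Adding nutlin-3a gave 3 positive changes of 10 (Pdgfra, Pdgfrb and Thy1). There 2 genes fell (median -0.34), beside 4.12% of all genes. Acta2 rose with FSL-1 by 0.99 (a call lost with any M-CSF or FSL-1 array dropped) and fell with nutlin-3a by 1.33 on the log2 scale (lost for FSL-1 array 2 or FSL-1 + nutlin-3a array 2). Col1a2 fell with nutlin-3a by 0.80 (adjusted p = 0.0292), a call lost for FSL-1 array 2, either FSL-1 + nutlin-3a array or with the mean of its probe sets. Postn, Dcn and Col1a1 had changes of 1.31, 0.69 and 0.38 with FSL-1 and of -1.50, -0.66 and -0.70 with nutlin-3a, none of which passed. Acta2, Col1a2, Postn, Dcn, Col1a1 and Cdkn1c were all highest on FSL-1 array 2, where Postn read 6.77 against 5.00 on the other FSL-1 array. The defining markers Pdgfra (4.49 in M-CSF and 4.28 with FSL-1) and Lum (2.72 and 2.84) were near or below the median of probe sets without a gene name (4.26). Pdgfrb read 4.79 and 4.94 in M-CSF, 5.36 and 5.14 with FSL-1, and 5.49 and 5.37 with FSL-1 + nutlin-3a. Thy1 read 5.62 and 5.62, 5.78 and 5.21, and 5.86 and 5.71 in the same order. The part of fibroblasts in the Cdkn1c result was not tested. In such bulk RNA, fewer cells of a type and less RNA per cell cannot be told apart.

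The well-known p53 target in this family, Cdkn1a, which encodes p21, was no member of the set but shares its function. It measured 11.87 and 11.69 in M-CSF, 12.12 and 12.23 with FSL-1, and 12.65 and 12.92 with FSL-1 + nutlin-3a. Cdkn1a rose with nutlin-3a by 0.61 (adjusted p = 0.0431), a call that no fit with 1 array dropped kept. Over both steps it rose by 1.00 (SE 0.139, adjusted p = 0.0036, limma), with values from 0.87 to 1.14 when single arrays were dropped. In the fit to all 6 arrays, the Cip/Kip genes differed in direction with nutlin-3a, with Cdkn1a higher and Cdkn1b and Cdkn1c lower. Each of these calls was lost in some fits with 1 array dropped, while the directions stayed the same.

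**Figure D2:**
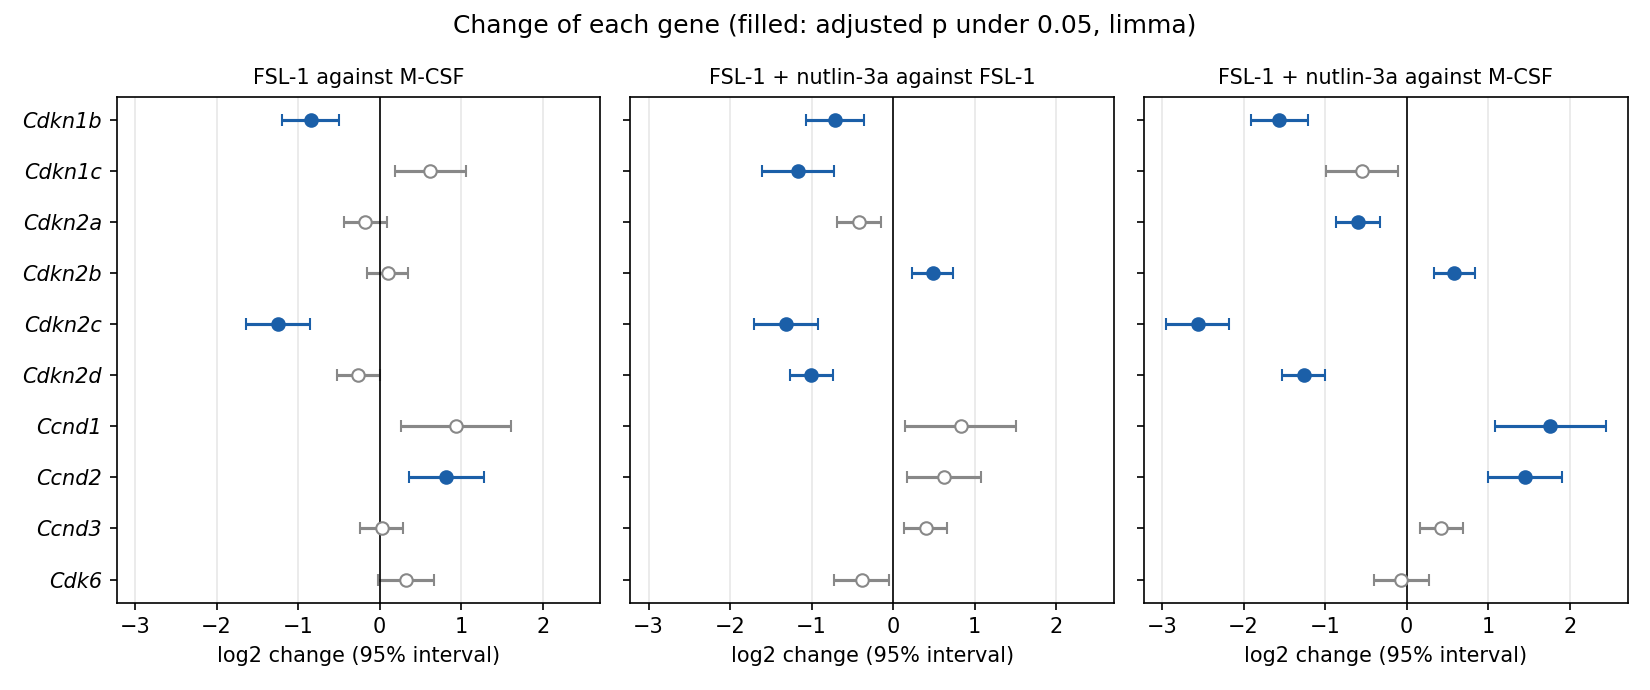
Log2 change (horizontal axis, point) of each of the 10 genes with its 95% interval (bar) in the 3 comparisons; filled points passed an adjusted p of 0.05 (limma). Cdkn2c lies to the left of 0 in all 3 panels, and in the right panel the points of Ccnd1 (1.76) and Ccnd2 (1.45) lie farthest to the right.

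Promoter sequence is shown for Cdkn2c and Cdkn1b, which fell together across the 3 groups, and for Cdkn2b, which rose with nutlin-3a. The sequences are the 250 bases before the annotated start in RefSeq (GRCm38.p6), 5′ to 3′ on the strand of the gene. Capitals mark letters of the 7 motifs that were searched on both strands. Cdkn2c lies on the minus strand, chr4:109666757-109667006, Cdkn1b on the plus strand, chr6:134920151-134920400, and Cdkn2b on the minus strand, chr4:89311033-89311282.
Cdkn2c: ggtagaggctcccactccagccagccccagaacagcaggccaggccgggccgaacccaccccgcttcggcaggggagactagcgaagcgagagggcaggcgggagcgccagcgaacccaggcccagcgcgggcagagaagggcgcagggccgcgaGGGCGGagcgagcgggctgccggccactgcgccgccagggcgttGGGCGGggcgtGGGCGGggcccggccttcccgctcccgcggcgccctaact
Cdkn1b: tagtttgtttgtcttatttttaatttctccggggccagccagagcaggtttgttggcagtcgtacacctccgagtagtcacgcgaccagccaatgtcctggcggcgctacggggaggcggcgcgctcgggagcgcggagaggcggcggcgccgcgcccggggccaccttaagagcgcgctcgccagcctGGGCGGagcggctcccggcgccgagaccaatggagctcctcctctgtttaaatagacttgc
Cdkn2b: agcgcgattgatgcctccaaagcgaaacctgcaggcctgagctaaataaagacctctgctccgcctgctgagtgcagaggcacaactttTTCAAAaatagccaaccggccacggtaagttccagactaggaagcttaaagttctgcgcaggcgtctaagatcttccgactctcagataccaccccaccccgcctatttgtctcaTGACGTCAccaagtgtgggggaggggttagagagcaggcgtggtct
In the Cdkn2c sequence the capitals are 3 copies of the GC box GGGCGG, and in the Cdkn1b sequence 1 copy. In the Cdkn2b sequence they are TTCAAA, the reverse complement of the CHR word TTTGAA, and the CRE word TGACGTCA. Windows of 300 bases, which add the 50 bases after the start, were searched for all genes. Among these 32851 windows the GC box was found in 35.7%, TTTGAA in 17.9% and TGACGTCA in 1.79%. The other motifs were the E2F words TTTCCCGC, TTTCGCGC, TTTGCCGC and TTTGGCGC (2.26% of windows), the FoxO word GTAAACA (3.65%), the AP-1 word TGACTCA (5.2%) and the E-box CACGTG (7.15%). Of the 10 windows that belong to 7 of the 10 genes, 8 held the GC box, that of Cdkn2b among them, where it lies after the start. A further start of Cdkn2c, chr4:109665373-109665622, is not shown, and its 250 bases held none of the motifs. Of these 10 windows, 1 of Cdkn2a held an E2F word, 1 of Ccnd3 the FoxO word, and 1 of Cdk6 and 1 of Cdkn2c the E-box. The E-box of Cdkn2c belongs to the further start, where it lies after the start, and not to the printed sequence. A match is only a run of letters, and no binding was measured.

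Among the D-type cyclins, Ccnd1 and Ccnd2 stood highest in the group where Cdkn2c, Cdkn1b and Cdkn2d stood lowest. Ccnd1, which encodes cyclin D1, measured 9.10 and 10.17 in M-CSF, 10.51 and 10.64 with FSL-1, and 11.34 and 11.46 with FSL-1 + nutlin-3a. The groups did not overlap, but the M-CSF arrays were far apart (SD 0.754 on the log2 scale, against 0.0938 and 0.0867 in the other groups). The change with FSL-1 was 0.94 (95% interval 0.26 to 1.61, adjusted p = 0.11) and that with nutlin-3a 0.83 (0.15 to 1.5, adjusted p = 0.151), and neither passed; among the brighter genes alone the first did (0.0423). Without M-CSF array 2, the first became 1.47 and passed (adjusted p = 0.00486), and without M-CSF array 1 it was 0.40. The second passed once either M-CSF array was dropped, which is the same fit as one without that group (adjusted p = 0.0154). Ccnd1 rose from M-CSF to the combined treatment by 1.76 (SE 0.293, adjusted p = 0.00834), a call lost without FSL-1 + nutlin-3a array 2 (0.057) and with a trended, robust variance (0.0544). The value was 2.29 without M-CSF array 2 and 1.23 without M-CSF array 1.

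Ccnd2, which encodes cyclin D2, measured 5.58 and 5.83 in M-CSF, 6.23 and 6.82 with FSL-1, and 7.22 and 7.08 with FSL-1 + nutlin-3a. The groups did not overlap, and the FSL-1 arrays were the widest pair (SD 0.415). It rose with FSL-1 by 0.82 (SE 0.197, 1.76-fold, adjusted p = 0.0482). That call was lost without any array other than FSL-1 array 1 (adjusted p from 0.0747 to 0.242), when only the M-CSF and FSL-1 arrays were fitted (0.0747) and with array weights (0.0509); without FSL-1 array 2 the change was 0.53. Adding nutlin-3a gave a change of 0.63 that did not pass (95% interval 0.17 to 1.08, adjusted p = 0.111; 0.0457 with a trended, robust variance and 0.0404 among the brighter genes). Over both steps Ccnd2 rose by 1.45 (SE 0.197, adjusted p = 0.0033), and this held without any 1 of the 6 arrays.

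Ccnd3, which encodes cyclin D3, measured 8.13 and 8.23 in M-CSF, 8.16 and 8.24 with FSL-1, and 8.58 and 8.62 with FSL-1 + nutlin-3a. The M-CSF and FSL-1 arrays overlapped, and their difference of 0.02 had an interval from -0.24 to 0.29 (adjusted p = 0.944). Both FSL-1 + nutlin-3a arrays were higher, by 0.40 than FSL-1 (95% interval 0.14 to 0.66, adjusted p = 0.0849) and by 0.42 than M-CSF (0.16 to 0.69, adjusted p = 0.0573). These did not pass, but did with a trended, robust variance (0.0215 and 0.0126) and among the brighter genes alone (0.0223 and 0.0138); the second also passed after quantile normalization was repeated (0.0384).

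Cdk6, a kinase partner of all D-type cyclins, measured 9.84 and 9.93 in M-CSF, 10.23 and 10.19 with FSL-1, and 10.01 and 9.63 with FSL-1 + nutlin-3a. The FSL-1 arrays were the highest, and the other groups overlapped. Its changes of 0.32 with FSL-1 (95% interval -0.02 to 0.66, adjusted p = 0.264) and -0.39 with nutlin-3a (-0.73 to -0.05, adjusted p = 0.181) did not pass, the second reaching 0.0462 with a trended, robust variance. The related kinase Cdk4 had changes of 0.05 (adjusted p = 0.869; -0.03 without M-CSF array 1) and -0.39 (adjusted p = 0.11; 0.0122 with a trended, robust variance and 0.0329 among the brighter genes).

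The wider G1 machinery was read through 22 further genes: CDKs and their activators, E-type cyclin, retinoblastoma family, E2F factors and the enzymes that degrade cyclins and inhibitors. With FSL-1, 1 of 22 rose and 2 fell (median -0.10), which is 13.6% of the list beside 6.86% of all genes. E2f3, an activating E2F factor, rose by 0.72, Skp2, the ubiquitin ligase subunit that recognises p27, fell by 0.77, and Rb1, the retinoblastoma gene, fell by 0.57 (adjusted p = 0.0487). With nutlin-3a, 1 rose, which was Cdkn1a, and 1 fell (median -0.16), which was Cdk2, the main kinase target of Cip/Kip proteins (log2 change -0.76, SE 0.123, adjusted p = 0.0121, limma). The share called there, 9.09% of the list, was near the 6.5% of all genes. Over both steps, 3 rose and 5 fell (median -0.13), which is 36.4% of the list beside 9.51% of all genes. Cdk2 fell by 1.15, Skp2 fell by 0.62, E2f3 rose by 1.02 and Cdkn1a rose by 1.00. With a trended, robust variance, or among the brighter genes, 8 passed with FSL-1 and 11 with nutlin-3a, where 12.4% and 12% of all genes, or 24.2% and 23.3% of the brighter genes, passed. The counts also moved with single arrays. All 3 calls with FSL-1 were lost once M-CSF array 2 or FSL-1 array 2 was dropped, and 1 gene passed for M-CSF array 1 or FSL-1 array 1. Rb1 lost its call with any array dropped, E2f3 with any M-CSF array or FSL-1 array 2, and Skp2 with either FSL-1 array or M-CSF array 2. Both calls with nutlin-3a were lost for FSL-1 array 1, FSL-1 array 2 or FSL-1 + nutlin-3a array 1, and 1 gene passed for any other, and Cdk2 lost its call with any array of the compared groups. The 8 called over both steps were 3 for M-CSF array 2 and 4 for M-CSF array 1 or either FSL-1 + nutlin-3a array; Cdk2, E2f3 and Cdkn1a kept theirs, and Skp2 did not for M-CSF array 2 or either FSL-1 + nutlin-3a array.

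A list of 33 genes known to act on transcription of the 10 genes, such as FoxO and Myc factors for Cdkn1b and Ccnd genes and Polycomb proteins for the Cdkn2a locus, had changes in both directions. With FSL-1, 4 rose and 4 fell (median -0.19), which is 24.2% of the list beside 6.86% of all genes. Ets2, a factor known to act on the p16 promoter, rose by 3.18 (SE 0.179, adjusted p = 6.71e-05), Myc rose by 2.02 and Klf4 by 1.71, and Mxd4, an antagonist of Myc, fell by 1.16. With nutlin-3a, 3 rose and 5 fell (median 0.11), which is 24.2% of the list beside 6.5% of all genes. Myc fell by 1.64 (adjusted p = 0.0114), Ets2 by 1.42, Klf4 by 1.30 and the chromatin protein Hmga2 by 0.85, while Id1, an inhibitor of Ets and helix-loop-helix factors, rose by 2.15. Over both steps, 4 rose and 3 fell (median -0.05), which is 21.2% of the list beside 9.51% of all genes. The Polycomb methyltransferase Ezh2 fell by 1.15 there, Hmga2 fell by 1.61, the AP-1 subunit Fos rose by 2.12 and Ets2 rose by 1.76. Among the brighter genes alone, 13 of 30 passed with nutlin-3a and 12 over both steps, beside 23.3% and 29.7% of all brighter genes. The first count of 8 was 5 once M-CSF array 1 or FSL-1 array 1 was dropped and 4 for FSL-1 array 2, while Ets2, Myc, Klf4 and Mxd4 kept their calls throughout. The second count of 8 was 3 and 2 for FSL-1 arrays 1 and 2, and 4 for either FSL-1 + nutlin-3a array. Ets2 and Klf4 kept their calls there; Myc lost its call for either FSL-1 array or FSL-1 + nutlin-3a array 1, Hmga2 for either FSL-1 array or FSL-1 + nutlin-3a array 2, and Id1 for FSL-1 array 2. The 4 genes named over both steps kept theirs.

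Genes of dividing cells fell alongside Cdkn2c and Cdkn1b. Of 15 cycling genes, 12 fell with FSL-1 (median -0.86), 15 fell with nutlin-3a (median -1.48) and 15 fell over both steps (median -2.44). Of all genes, 2.95%, 4.12% and 4.94% fell in these comparisons. Examples are Cenpa (-1.67) and Ccnb2 (-1.16) with FSL-1, Ccna2 (-2.78) and Kif11 (-2.45) with nutlin-3a, and Top2a (-3.07) over both. With 1 array dropped, the first count was 5 (M-CSF array 1), 6 (M-CSF array 2), 2 (FSL-1 array 1) and 5 (FSL-1 array 2), and Ccnb2 lost its call for the last. Summed signal of the list was 6224 to 6582 in M-CSF, 3212 to 3321 with FSL-1 and 995 to 1201 with FSL-1 + nutlin-3a (linear scale), in the order of Cdkn2c and Cdkn1b and opposite to Ccnd1 and Ccnd2. The part of the share of dividing cells in these results was not tested.

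**Figure D3:**
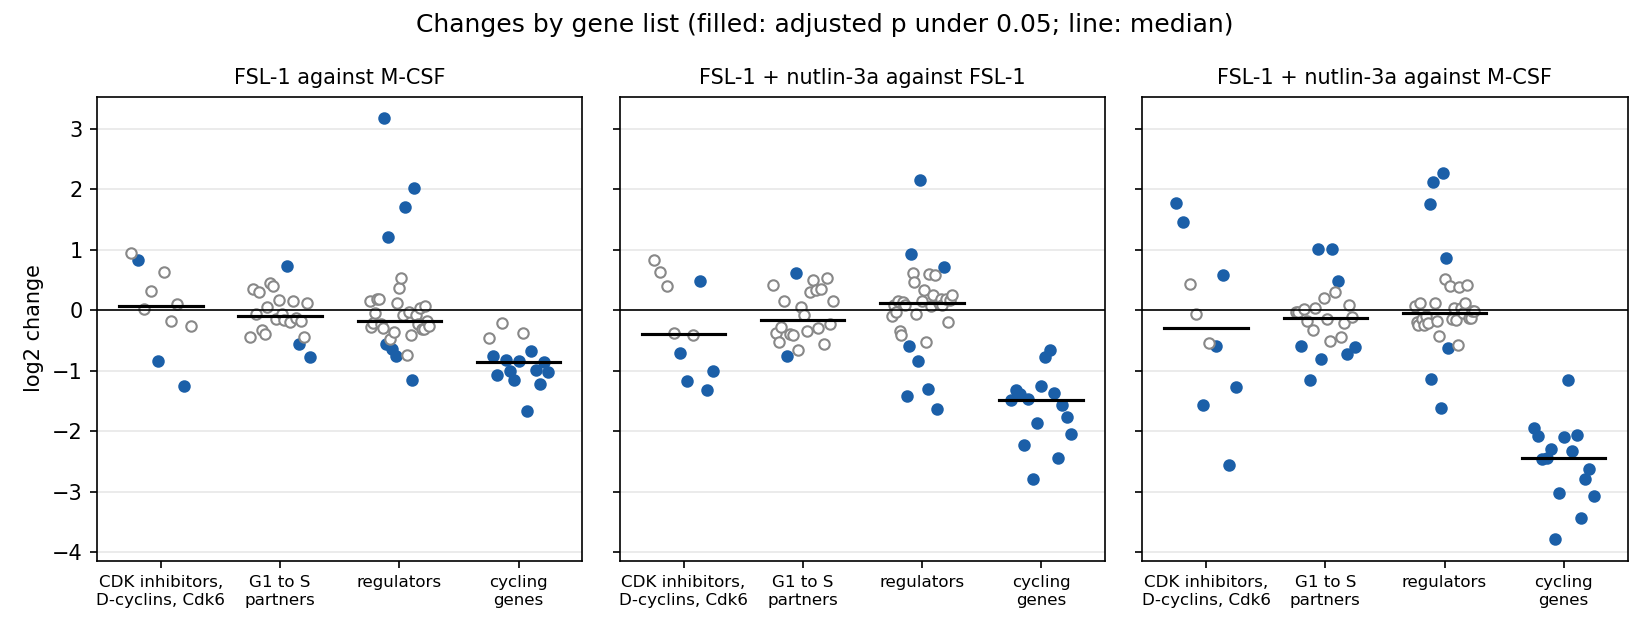
Log2 change (vertical axis) of each gene in 4 lists, with 1 panel per comparison; filled points passed an adjusted p of 0.05, open points did not, and lines are medians. Cycling genes lie below 0 in all 3 panels, while the CDK inhibitors, D-type cyclins and Cdk6 spread from -2.57 to 1.76 in the right one.

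For the 8 genes called in at least 1 comparison, the 3 genes nearest in pattern were sought, by the root mean square difference of log2 values over the 6 arrays after each gene was centred on its own mean. The genes of the set itself and predicted genes (named Gm, Rik or LOC) were left out of the search. Nearest to Cdkn2c were Mki67, the proliferation marker Ki-67 (difference 0.141, changes of -1.23 with FSL-1 and -1.56 with nutlin-3a), St8sia4 (0.17) and the kinetochore gene Ndc80 (0.18). Nearest to Cdkn2d were Trip13, a checkpoint ATPase (0.0326), Tdrkh (0.0629) and the mannose receptor Mrc1 (0.0641). Cdkn1b had Klhl6 (0.0723), the purine receptor P2ry12 (0.0775) and Acss1 (0.119), and Cdkn1c had the class I gene H2-Q4 (0.0647), Mamdc2 (0.087) and Edil3 (0.123). Nearest to Ccnd1 were the Ets factor Etv5 (0.246), the chemokine Ccl4 (0.249) and Trib1 (0.249). Ccnd2 was nearest to the cytokine receptor Il21r (0.134), Nudt12 (0.14) and Pmm1 (0.146), Cdkn2a to Tra2b (0.0338), Cbfb (0.0362) and Tarsl2 (0.0403), and Cdkn2b to Adgra3 (0.0264), Mid2 (0.0365) and Tgoln1 (0.0383). A gene that changes little has many near neighbours by this measure, so differences are not to be set against each other between genes.

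Macrophage identity was read from 11 markers, of which 10 were above the median of all genes in every group, Cd163 being the exception (5.45 in M-CSF and 5.23 with FSL-1). Their summed signal varied from 35360 to 38273 over the 6 arrays, of which Lyz2 and Cd68 made up 17958 to 19411. The other 9 summed to 18835 to 20034 in M-CSF, 19631 to 19935 with FSL-1 and 15949 to 16483 with FSL-1 + nutlin-3a. Of the 11, 2 rose and 1 fell with FSL-1. Adgre1 rose (11.89 and 11.84 in M-CSF, 12.46 and 12.39 with FSL-1), as did Itgam (11.06 and 11.08, then 11.78 and 11.84). The M-CSF receptor Csf1r fell (-0.87, a call lost for M-CSF array 1 or either FSL-1 array). With nutlin-3a 3 fell, the Fc receptor Fcgr1 (-1.58), Cd14 (-1.12) and Mrc1 (-0.85, lost for either FSL-1 array). In that comparison 0 rose, but 5 of the 11 changes were positive. Csf1r was among them (0.40), and passed with a trended, robust variance (adjusted p = 0.0106) and among the brighter genes (0.0418, limma). Of all genes, 3.91% rose and 2.95% fell with FSL-1, and 4.12% fell with nutlin-3a. Of 10 neutrophil markers 0 were above that median in M-CSF and 1 in each other group, which was S100a8. Their summed signal was 231 to 234, 325 to 327 and 294 to 313 in M-CSF, FSL-1 and FSL-1 + nutlin-3a, and without S100a8 it was 209 to 219, 223 to 235 and 216 to 223. S100a8 rose from 4.19 to 6.60 with FSL-1 and Cxcr2 by 0.60 (a call kept only for M-CSF array 2 when single arrays were dropped), and the median of the list was 0.10. Of 9 lymphocyte markers 1 was above the median of all genes in each group, which was Il7r, and it carried the change in their summed signal (888 to 895, 1992 to 2306 and 1605 to 1619). The other 8 summed to 150 to 165, 141 to 159 and 154 to 171, and the median change of the list with FSL-1 was -0.05. Of 9 dendritic cell markers 3 or 4 were above that median, and their summed signal was 1270 to 1362, 1208 to 1316 and 1178 to 1273. In each comparison 1 of them rose, beside 3.91%, 2.38% and 4.58% of all genes, and 0 fell. Ccr7 rose with FSL-1 (0.65), and Itgax with nutlin-3a (0.88) and over both steps (0.99). The median changes of the list were -0.01, -0.07 and -0.10. Replicate arrays correlated across genes at 0.9929 to 0.9951 and arrays of different groups at 0.9788 to 0.9858. The number of arrays, 2 a group, limits the precision of all values.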

How the data were processed

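The authors deposited log2 expression per probe set. The submitters' processing notes name RMA and Affymetrix Expression Console 1.4; RMA equalises arrays by quantiles, which would hide a shift shared by most genes. Raw intensities were not used here, so background is unknown. The platform annotation named the genes, and the brightest of several probe sets was kept. limma 3.58.1 in R 4.3.3 was fitted to 22180 genes on 6 arrays and tested on simulated data. Genes and lists were chosen with earlier results of these data known. Named are all 10 genes, up to 4 called genes of smallest p per list and comparison, Cdk4, Cdk2, Rb1, Cdkn1a and Myc, and the 3 nearest patterns; marker genes were singled out after their values were seen. Some genes of the lists are not analysed here, nor are protein sequences. Alternatives covered variance, normalization, probe sets, dim genes, groups fitted, a fold minimum of 1.5, weighting of arrays, the replicate number as a block, and dropping each array, where the one left in its group is assumed to vary like the rest. Figures were drawn with matplotlib 3.10.9.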

Additional observations from a re-analysis of the deposited data

How the results depend on the processing

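Of 460 refits of changes of the 10 genes, 394 kept direction and side of the threshold, 47 lost a call, 16 gained one and 3 reversed. Reversals came with single arrays dropped and in small changes: Ccnd3 with FSL-1 (-0.0245 for M-CSF array 1, -0.0170 for FSL-1 array 2, highest 0.0710) and Cdk6 over both steps (0.129 for FSL-1 + nutlin-3a array 2, lowest -0.256). Of 1423 refits for other named genes 4 reversed: Id1 (-0.0243 to 0.247) and Cdk4 (-0.0328 to 0.142) with FSL-1, S100a8 with nutlin-3a (-0.462 to 9.65e-05) and Myc over both steps (-0.0363 to 0.81). A trended, robust variance called 2744, 2658 and 3337 of all genes in the 3 comparisons in place of 1521, 1441 and 2110, and 8 of the 10 genes and 38 of the 70 list genes with nutlin-3a in place of 5 and 25. Leaving out dim genes called 2682, 2579 and 3290 of 11090, with 5 of the 10 genes for FSL-1, and 8 and 39 with nutlin-3a. A fold minimum of 1.5 called 208, 159 and 370 of all genes, 0, 0 and 3 of the 10 (1, 3 and 5 at an unadjusted p under 0.05 in limma), and 4, 12 and 18 of the list genes. Among these 3 settings, the fold minimum is stricter by construction. Leaving out dim genes changed both the number of genes tested and the genes from which limma estimated the variance. Which of these moved the counts was not tested, nor was the cause for the trended, robust variance. With 1 array dropped, calls over all genes ran from 451 to 1299, 352 to 1212 and 1158 to 1529, those among the 10 genes from 1 to 3, 2 to 5 and 4 to 7, and those among list genes from 8 to 21, 14 to 24 and 25 to 29. Deviations of same-numbered arrays correlated across genes at -0.188, -0.0248 and 0.0175. With 2 arrays a group, these values cannot decide whether the numbers pair the arrays. The replicate block called 3, 3 and 7 of the 10 genes, 19, 23 and 28 list genes and 1167, 1005 and 1725 of all genes. With the M-CSF numbers crossed, an alternative chosen after seeing the data, the FSL-1 comparison called 2 of the 10, 20 and 1278. With 2 arrays a group, changes near 1.5-fold fell on both sides of the threshold. Cdkn1c with FSL-1 (1.54-fold higher) and Ccnd2 with nutlin-3a (1.55-fold higher) did not pass. Over both steps, Cdkn2b (1.5-fold higher) and Cdkn2a (1.51-fold lower) did.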
